A study of Mus musculus with 6 samples.

Results

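The interleukin-1 (IL-1) family ligands and receptors were described in primary microglia (PM), the cultured resident macrophages of the mouse brain. Members were matched by gene symbol to 10 genes: Il1a, Il1b, Il1rn, Il18, Il18bp, Il33, Il1r1, Il1r2, Il1rl1 and Il1rap, of 24411 features counted. All 10 were listed in the count tables, and 7 had enough counts to be tested. RNA-seq libraries were compared between PM treated with GSK-J4 (10 μM) and PM that received LPS at 10 ng/ml together with 10 μM GSK-J4 (LPS + GSK-J4), with 3 libraries in each group at 4 h. GSK-J4 is an inhibitor of the H3K27 demethylase JMJD3, and LPS is the bacterial cell wall component sensed by TLR4. Both groups carried GSK-J4, so the comparison gives the response to LPS in the presence of the inhibitor. Untreated PM and PM given LPS alone were not analysed here. PM were shaken off mixed glial cultures made from pooled brains of newborn ICR mice, and the study describes its replicates as independent biological samples.

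IL-1 alpha and IL-1 beta bind the receptor IL1R1, which recruits the accessory protein IL1RAP and signals through MyD88 and IRAK kinases to NF-kB. The antagonist IL1RN occupies the same receptor without recruiting the accessory chain, and the decoy receptor IL1R2 binds ligand without signalling. IL-18 and its soluble inhibitor IL18BP, and IL-33 with its receptor ST2 (encoded by Il1rl1), form sister systems, and ST2 also pairs with IL1RAP. Microglia are a known source of IL-1 in the inflamed brain, and IL-1 beta and IL-18 need cleavage by caspase-1 in inflammasomes before they act.

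A library held 2597505 to 3472716 fragments on genes, of which 270 to 2673 belonged to the 10 members. The third replicate of each group stood apart from the others. Replicates 1 and 2 differed by a chi-square per degree of freedom of 2.12 in GSK-J4 against 2.32 in LPS + GSK-J4, and pairs with replicate 3 gave at least 5.81. The ribosomal precursor Rn45s took 25.6% ± 5.88 of the counts in GSK-J4 against 47.1% ± 1.15 in LPS + GSK-J4 (SD, n = 3). With ribosomal features left out of the fit, 4 members were again called higher and 0 lower, beside 302 and 83 of 9821 genes tested. Il18 and Il1r1 had no value in that fit. The log2 fold changes were 3.42 for Il1a, 4.01 for Il1b, 2.33 for Il1rn and 1.68 for Il1rl1. All 13 markers of microglia were detected and 0 of them were called, beside 2.95% of all genes tested called higher and 0.809% lower. Their summed level was 3996 to 4084 CPM (counts scaled to library size, with TMM factors) in GSK-J4 against 3246 to 3268 in LPS + GSK-J4. Csf1r (log2 fold change -0.46, edgeR adjusted p = 0.0045) and Cx3cr1 (-0.48, adjusted p = 0.00354) were lower, short of the fold change that a call required. Ptprc (0.20) was the one marker with a positive log2 fold change.

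LPS in the presence of GSK-J4 was accompanied by higher transcript levels of both IL-1 agonists, of their antagonist and of the ST2 receptor. Calls required that edgeR's quasi-likelihood test gave an adjusted p no larger than 0.01 and that the log2 fold change reached 1.5 up or down. Of the 7 members tested, 4 were called higher, where 2.95% of the 10133 genes tested were called higher. No member was called lower (0 of 7, beside 0.809% of all genes tested), and at any fold change 4 members against 8.42% of all genes were higher at an adjusted p of at most 0.01. The median log2 fold change of the members tested was 1.68, and that of all genes tested was -0.00064. Leaving out replicate 3 of both groups, an alternative chosen after seeing the data, also gave 4 members called higher and 0 lower. Of the 10375 genes tested there, 297 were called higher and 90 lower. In bulk RNA, fewer cells of a type and less RNA per cell cannot be told apart.

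The sequences upstream of the 4 members called higher are shown because these genes moved together. Each run is the 250 bases before the first RefSeq transcription start of the gene (GRCm38.p6), 5′ to 3′ on the gene's strand, and capitals mark matches to the letters searched. The letters were TGANTCA for AP-1, GGNNTTTCC for NF-kB, TTGCNNAA for C/EBP, TTCNNNGAA for STAT and GAAANNGAA for IRF on both strands of the 300-base windows from 250 before to 50 after the start. TATAAA for the TATA box was added after the sequences were seen and was searched on the gene's strand.
Il1a, chr2:129309973-129310222, minus strand: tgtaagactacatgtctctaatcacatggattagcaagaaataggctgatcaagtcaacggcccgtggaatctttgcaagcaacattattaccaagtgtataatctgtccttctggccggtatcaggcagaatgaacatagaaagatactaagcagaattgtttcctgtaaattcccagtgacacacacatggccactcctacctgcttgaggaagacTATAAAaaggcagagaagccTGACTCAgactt
Il1b, chr2:129371140-129371389, minus strand: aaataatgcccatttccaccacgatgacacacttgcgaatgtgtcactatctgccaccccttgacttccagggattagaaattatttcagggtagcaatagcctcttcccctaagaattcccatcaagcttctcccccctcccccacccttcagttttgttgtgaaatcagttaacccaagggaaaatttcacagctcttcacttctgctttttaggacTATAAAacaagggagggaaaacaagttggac
Il1rn, first promoter, chr2:24336610-24336859, plus strand: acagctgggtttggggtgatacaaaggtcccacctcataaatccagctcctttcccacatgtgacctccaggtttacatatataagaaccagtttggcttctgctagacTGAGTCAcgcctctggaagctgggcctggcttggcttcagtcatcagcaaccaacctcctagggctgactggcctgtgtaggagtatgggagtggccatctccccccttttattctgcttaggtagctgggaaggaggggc
Il1rl1, first promoter, chr1:40429320-40429569, plus strand: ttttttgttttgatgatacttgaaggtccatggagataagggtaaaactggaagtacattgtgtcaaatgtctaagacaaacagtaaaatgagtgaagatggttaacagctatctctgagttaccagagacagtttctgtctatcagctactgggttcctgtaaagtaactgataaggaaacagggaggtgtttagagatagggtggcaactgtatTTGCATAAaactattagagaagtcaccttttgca

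The Il1a and Il1b windows both held a TATA box, from -32 to -27 in Il1a and from -31 to -26 in Il1b, letters found in 8.32% of the 32851 mouse promoters. Il1a held an AP-1 match from -12 to -6 and the first Il1rn promoter one from -141 to -135, and 7.81% of all promoters held one. The first Il1rl1 promoter held a C/EBP match from -34 to -27, as 10.8% of all promoters did. NF-kB letters, held by 5.82% of promoters, were found in neither the Il1a nor the Il1b window. They were found once at a downstream start of Il1rn, at chr2:24345321-24345329, and once at the downstream start of Il1rl1, at chr1:40439636-40439644. These matches are shown with 10 bases on either side.
Il1rn, NF-kB letters: gaaatatgagGGTTTTTCCgcttctgaca
Il1rl1, NF-kB letters: ggtaagtttaGGAATTTCCagtaagtgag
A match is a description of letters in a window. Counts per gene do not separate transcripts from different starts.

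Il1a encodes IL-1 alpha, an agonist that is active without inflammasome cleavage. The gene (ENSMUSG00000027399.1) lies on the minus strand at chr2:129299610-129309972 (mm10). Its level was 59.9, 50.3 and 35.9 CPM in the 3 GSK-J4 libraries and 531, 566 and 479 CPM in the 3 LPS + GSK-J4 libraries. Every LPS + GSK-J4 library lay far above every GSK-J4 library, and the lowest value of the GSK-J4 group was in its replicate 3. Il1a rose by a log2 fold change of 3.41 (SE 0.16, 10.7-fold, edgeR adjusted p = 2.21e-10), from 48.7 ± 12.1 to 525 ± 43.9 CPM (SD, n = 3). These values rest on 98 to 254 counts in a GSK-J4 library and 1159 to 1483 in an LPS + GSK-J4 library. An antisense transcript, Gm14023, overlaps Il1a on the plus strand and had 0 to 3 counts in GSK-J4 against 2 to 7 in LPS + GSK-J4. The counts used here separate the strands. Counted without strand, where fragments shared by both genes are dropped, 74.3% of the Il1a count of GSK-J4 and 76.7% of that of LPS + GSK-J4 were left.

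Il1b encodes IL-1 beta, the agonist that is made as a precursor and released after caspase-1 cleavage. It lies near Il1a on the same strand (ENSMUSG00000027398.13, chr2:129364570-129371139). Its level was 15.3, 10.8 and 6.60 CPM in GSK-J4 and 194, 174 and 177 CPM in LPS + GSK-J4. The groups were again widely separated, and the GSK-J4 libraries spread more, relative to their mean, than the LPS + GSK-J4 libraries did. Il1b rose 16.1-fold (log2 fold change 4.00, SE 0.20, edgeR adjusted p = 4.16e-10), the largest fold change among the 7 members tested, from 10.9 ± 4.37 to 182 ± 10.7 CPM (SD, n = 3). The lowest library, GSK-J4 replicate 3, held 18 Il1b counts, and without it the log2 fold change was 3.80. Its antisense neighbour Il1bos had 3 counts in all 6 libraries together.

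**Figure D1:**
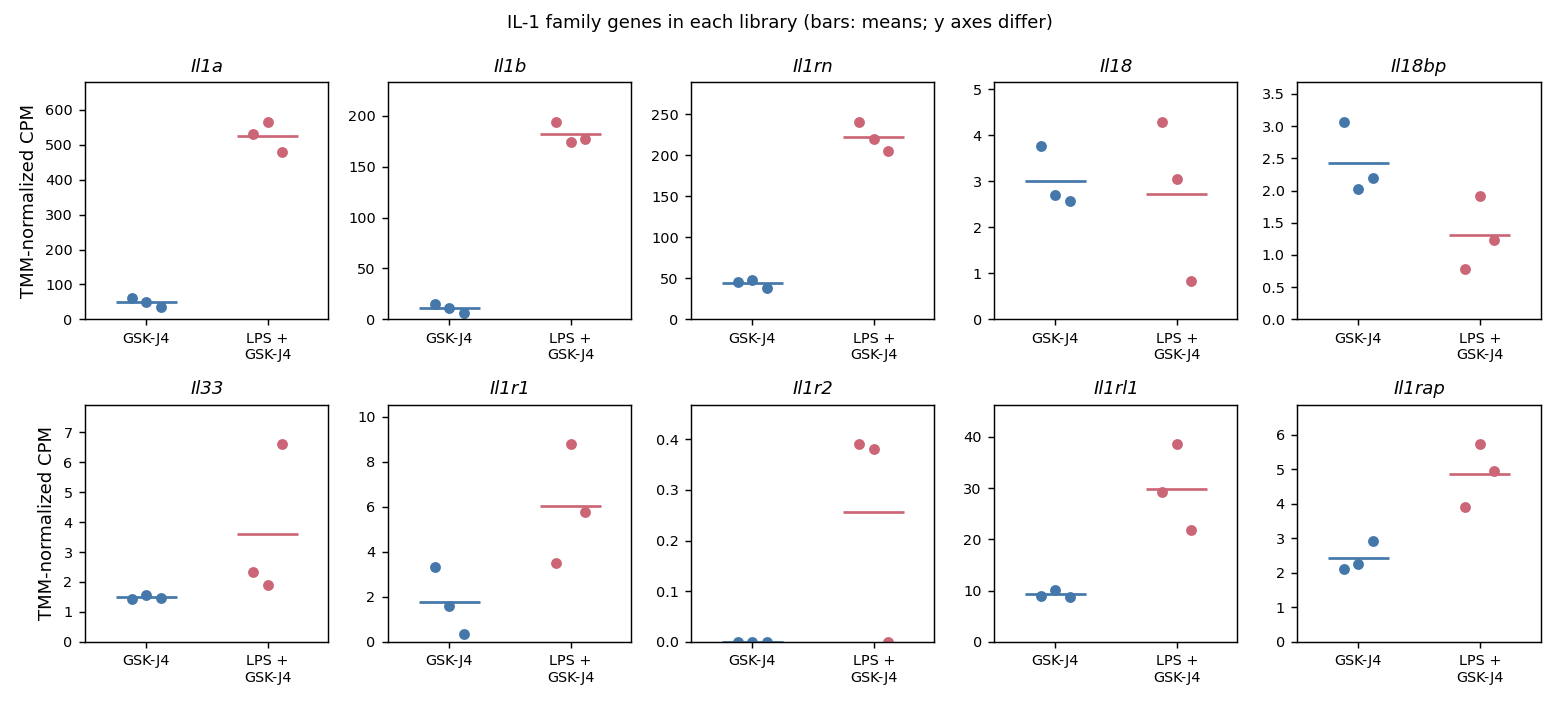
Level of each of the 10 genes in each library, in TMM-normalized CPM on linear axes that start at 0 and differ between panels; points are libraries and bars are means of 3. Il1a (478.6 to 565.9 against 35.9 to 59.9) and Il1b are separated most widely, Il18 overlaps between groups, and Il1r2 does not exceed 1 count in any library.

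Il1rn encodes the IL-1 receptor antagonist, in secreted and intracellular forms that start at different promoters (ENSMUSG00000026981.15, chr2:24336853-24351494, plus strand). Its level was 45.3, 48.0 and 38.1 CPM in GSK-J4 and 241, 220 and 206 CPM in LPS + GSK-J4. The groups did not overlap, and replicate 3 was lowest in each. Il1rn rose 5.03-fold (log2 fold change 2.33, SE 0.13, edgeR adjusted p = 2.94e-09), from 43.8 ± 5.12 to 222 ± 17.7 CPM (SD, n = 3). Its fold change was below that of either agonist.

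The balance of antagonist to agonists was therefore compared within each library, as Il1rn counts per kilobase of annotated exon over the sum of Il1a and Il1b. The ratio was 0.213, 0.279 and 0.317 in GSK-J4 and 0.117, 0.105 and 0.111 in LPS + GSK-J4. All 3 LPS + GSK-J4 libraries lay below all 3 GSK-J4 libraries. The mean log2 ratio was -1.91 ± 0.29 in GSK-J4 against -3.17 ± 0.08 in LPS + GSK-J4 (SD, n = 3), a difference of -1.26. The two-sided exact permutation p was 0.1, the smallest that this test allows with 3 against 3 libraries. It was 0.3 after adjustment over the 3 ratios compared, so this test cannot bring the difference under 0.05 here. With the lengths of principal transcripts in place of all annotated exons, a choice made after seeing the data, the ratios themselves were higher, at 0.439, 0.580 and 0.665 in GSK-J4 against 0.236, 0.214 and 0.223 in LPS + GSK-J4, and the difference was -1.30. Transcript ratios are not protein ratios, and none of these values measures secretion.

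**Figure D2:**
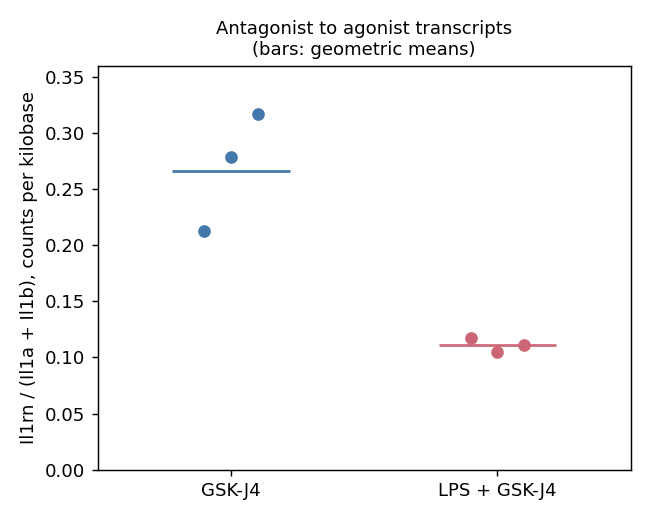
Ratio of Il1rn to the sum of Il1a and Il1b in each library, in counts per kilobase on a linear axis from 0; points are libraries and bars are geometric means of 3. The LPS + GSK-J4 libraries sit between 0.105 and 0.117 and the GSK-J4 libraries between 0.213 and 0.317.

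Between the agonists, Il1a exceeded Il1b per kilobase in every library. The ratio of Il1a to Il1b was 3.78, 4.51 and 5.26 in GSK-J4 and 2.65, 3.14 and 2.61 in LPS + GSK-J4, a description chosen after the values were seen and not tested. The groups did not overlap in it, with less excess of Il1a in each LPS + GSK-J4 library.

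IL-18, a cytokine that drives interferon gamma release from lymphocytes, did not follow the IL-1 agonists. Il18 (chr9:50554827-50581840, plus strand) had 3.78, 2.69 and 2.57 CPM in GSK-J4 and 4.29, 3.05 and 0.826 CPM in LPS + GSK-J4. The groups overlapped, and the last value was 2 counts in LPS + GSK-J4 replicate 3, below the level of 3 counts used as a lower limit. Its log2 fold change was -0.15 (SE 0.48, edgeR adjusted p = 0.867). This estimate became positive without GSK-J4 replicate 1 (0.05) or without LPS + GSK-J4 replicate 3 (0.26). At 2 to 16 counts per library a moderate change of either sign was not detectable.

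Il18bp, which encodes the soluble protein that neutralizes IL-18 (chr7:102014885-102018690, minus strand), was too low to be tested. It had 13, 9 and 6 counts in GSK-J4 and 2, 5 and 3 counts in LPS + GSK-J4. After scaling these were 2.43 ± 0.56 and 1.31 ± 0.57 CPM (SD, n = 3). The groups did not overlap but nearly touched, at 2.02 CPM in GSK-J4 replicate 2 and 1.91 CPM in LPS + GSK-J4 replicate 2. Counted without strand, GSK-J4 replicate 3 and LPS + GSK-J4 replicate 1 both held 6 counts. With no filter on low counts the edgeR log2 fold change was -0.93 (adjusted p = 0.364), which is not a call. The ratio of Il18bp to Il18 per kilobase differed by -0.48 on the log2 scale between groups (two-sided exact permutation p = 0.7).

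Il33 encodes an alarmin stored in the nucleus of glia and of stromal and endothelial cells (chr19:29925114-29960718, plus strand). It did not pass the filter, with 6, 7 and 4 counts in GSK-J4 and 6, 5 and 16 counts in LPS + GSK-J4. The LPS + GSK-J4 mean of 3.62 ± 2.6 CPM, beside 1.48 ± 0.08 CPM in GSK-J4 (SD, n = 3), included replicate 3 at 6.61 CPM, the highest library by far. With no filter the log2 fold change was 1.19 (edgeR adjusted p = 0.127).

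Of the receptors, Il1rl1 was the one called. It encodes ST2, the IL-33 receptor chain, in a membrane form and a soluble decoy form that counts per gene do not separate (ENSMUSG00000026069.15, chr1:40429570-40465415, plus strand). Its level was 8.97, 10.1 and 8.80 CPM in GSK-J4 and 29.3, 38.5 and 21.9 CPM in LPS + GSK-J4. The groups did not overlap, and the GSK-J4 libraries lay close together while the LPS + GSK-J4 libraries spread. Il1rl1 rose 3.20-fold (log2 fold change 1.68, SE 0.23, edgeR adjusted p = 5.96e-05), from 9.29 ± 0.71 to 29.9 ± 8.35 CPM (SD, n = 3). Without LPS + GSK-J4 replicate 2 the log2 fold change was 1.45 at an adjusted p of 0.00109, below the fold threshold.

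Il1r1 encodes the signalling IL-1 receptor (chr1:40225080-40317257, plus strand). It was detected at 3.30, 1.57 and 0.367 CPM in GSK-J4 and at 3.51, 8.78 and 5.78 CPM in LPS + GSK-J4. The groups did not overlap but nearly touched, and the lowest library, GSK-J4 replicate 3, held 1 count. Its log2 fold change of 1.65 (SE 0.51, edgeR adjusted p = 0.0266) was not called. Il1r1 passed both thresholds in 3 of 12 alternatives. These included the fit without GSK-J4 replicate 1 (2.42, adjusted p = 0.00891) and that with no filter on low counts (1.60, adjusted p = 0.00315). DESeq2 gave an adjusted p of 0.0748. The log2 fold change fell to 1.27 without LPS + GSK-J4 replicate 2 (edgeR adjusted p = 0.179) and to 1.30 without GSK-J4 replicate 3 (edgeR adjusted p = 0.0758).

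Il1rap, the accessory chain shared by IL1R1 and ST2 (chr16:26581704-26730117, plus strand), was present at 2.12, 2.25 and 2.93 CPM in GSK-J4 and 3.90, 5.72 and 4.96 CPM in LPS + GSK-J4. The groups did not overlap, on 8 to 15 counts per library. Its log2 fold change of 1.02 (SE 0.38, edgeR adjusted p = 0.0628) was not called. The decoy receptor Il1r2 (chr1:40074079-40125231, plus strand) had 0 counts in each GSK-J4 library and 1, 1 and 0 counts in LPS + GSK-J4, all under the level of 3 counts, which corresponds to 0.673 to 1.24 CPM. No fold change is given for it. The ratio of Il1r2 to Il1r1 rests on these counts and differed by -0.38 on the log2 scale (two-sided exact permutation p = 0.7).

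**Figure D3:**
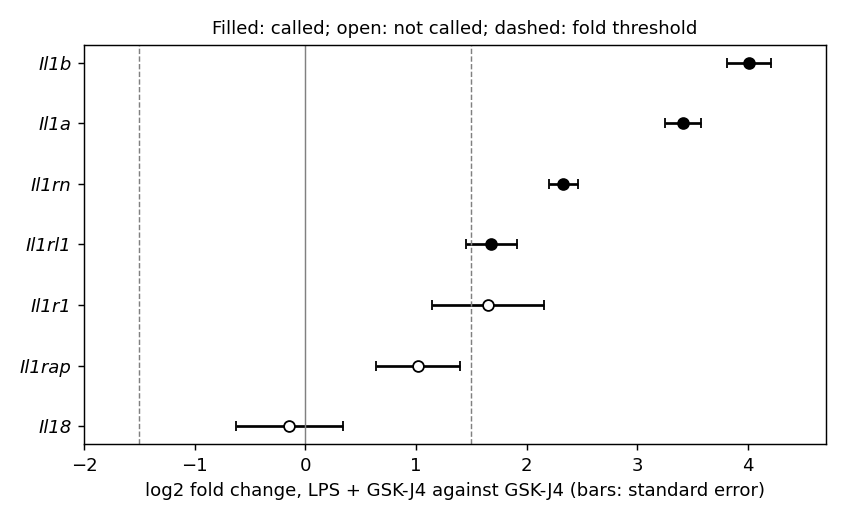
Log2 fold change of LPS + GSK-J4 against GSK-J4 for the 7 genes tested; bars are standard errors, filled points were called, open points were not, and dashed lines mark the fold threshold of 1.5 in both directions. Il1b (4.00), Il1a (3.41), Il1rn (2.33) and Il1rl1 (1.68) are filled, and Il18 spans 0.

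Levels of different genes were set side by side only per kilobase of annotated exon (RPKM after TMM scaling). In GSK-J4, Il1a led at 24.7 ± 6.12 RPKM, followed by Il1rn at 7.92 ± 0.92 and Il1b at 5.72 ± 2.29 (SD, n = 3). The ranges of Il1rn and Il1b overlapped, as did those of Il1b and Il18, while Il1a lay above all others in every library. In LPS + GSK-J4 the order was Il1a at 266 ± 22.3, Il1b at 95.3 ± 5.63, Il1rn at 40.1 ± 3.20 and Il1rl1 at 4.34 ± 1.21 RPKM, and the ranges of Il1a, Il1b and Il1rn did not overlap. Lower members in GSK-J4 were Il18 at 2.92, Il1rl1 at 1.35, Il18bp at 0.803, Il33 at 0.514, Il1r1 at 0.275 and Il1rap at 0.214 RPKM, where Il33 with Il1r1 and Il1r1 with Il1rap overlapped in range and the other neighbours did not. In LPS + GSK-J4 the lower levels were 2.64 for Il18, 1.25 for Il33, 0.947 for Il1r1, 0.433 for Il18bp, 0.428 for Il1rap and 0.135 RPKM for Il1r2, and ranges overlapped between all neighbours in this order from Il1rl1 to Il1rap. Il1b thus stood below Il1rn in each GSK-J4 library and above it in each LPS + GSK-J4 library, and this was also so with principal transcript lengths (8.04 and 17.7 RPKM in GSK-J4, 134 and 89.8 RPKM in LPS + GSK-J4). The order of the lower members depended on the length used. With principal transcript lengths Il1rap stood above Il1r1, at 0.538 and 0.300 RPKM in GSK-J4 and at 1.08 and 1.04 RPKM in LPS + GSK-J4, where Il18bp followed at 0.821 RPKM. Il18bp was then at 1.52 RPKM in GSK-J4 and overlapped in range with Il1rl1 at 1.75 RPKM. Per kilobase of annotated exon, the receptors were low in both groups: the sum of Il1r1, Il1r2, Il1rl1 and Il1rap was 1.59 to 2.01 RPKM in GSK-J4 and 4.52 to 7.67 RPKM in LPS + GSK-J4. Il1a, Il1b and Il1rn together made up 84.3% to 87.4% of the summed RPKM of the 10 members in GSK-J4 and 97.2% to 97.9% in LPS + GSK-J4.

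**Figure D4:**
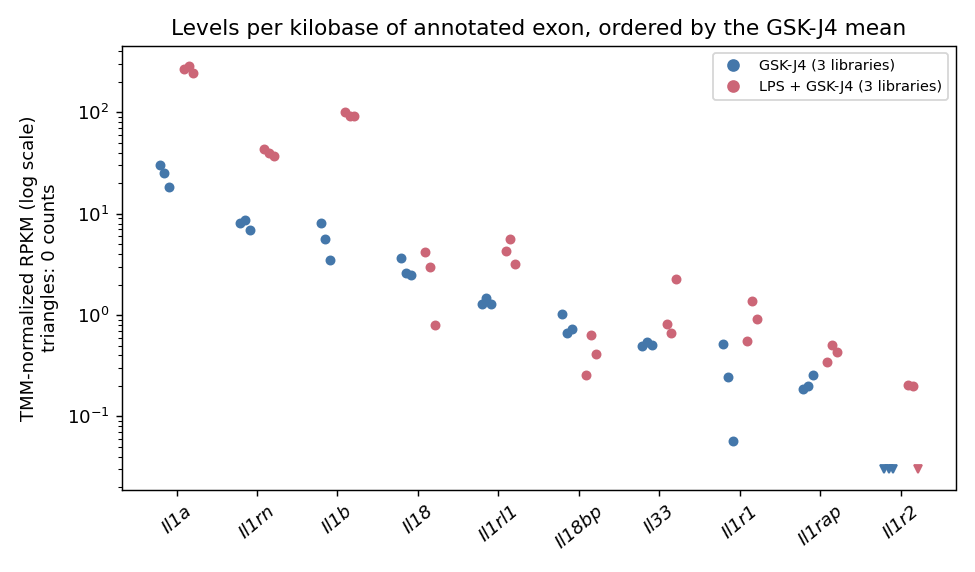
TMM-normalized RPKM of each gene in each library on a log axis, ordered by the GSK-J4 mean; points are libraries and triangles mark 0 counts. Il1b crosses Il1rn between the groups (5.72 to 95.3 against 7.92 to 40.1 RPKM), and the receptors Il1r1, Il1r2 and Il1rap lie at 1.38 RPKM or lower.

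Other cell types of a glial culture can express the receptors and Il33, and the levels of their markers are given beside them. The summed level of the 9 astrocyte markers was 60.2 to 63.4 CPM in GSK-J4 and 144 to 175 CPM in LPS + GSK-J4, with 2 of the 8 tested called higher, Gfap and Sox9. The summed level of the 9 oligodendrocyte lineage markers was 209 to 240 CPM in GSK-J4 and 380 to 427 CPM in LPS + GSK-J4, with 0 of 7 called. Fibroblast and pericyte markers summed to 80.1 to 282 CPM in GSK-J4 and 138 to 427 CPM in LPS + GSK-J4, and Rgs5 was at 0. The part of these cells in the levels of Il1rl1, Il1r1, Il1rap and Il33 was not tested. Summed over the 5 endothelial markers, levels ran from 16.6 to 22.7 CPM with GSK-J4 alone, against 28.5 to 64.0 CPM with LPS added. Most of this sum was Cdh5, the only endothelial marker called, whose mean was 12.3 CPM without LPS and 35.2 CPM with it. Flt1 was tested and not called (log2 fold change 0.61, edgeR adjusted p = 0.2235). Group means of the untested Kdr (2.47, then 2.61 with LPS) and Pecam1 (1.01, then 0.79) differed little, and Cldn5 was at 0. The highest astrocyte, oligodendrocyte lineage, fibroblast and pericyte, endothelial and Il33 values all fell in LPS + GSK-J4 replicate 3. Mast cells and T and NK cells, which are known to carry ST2, had little signal: of 5 mast cell markers Kit alone was detected (Cpa3, Mcpt4, Tpsb2 and Fcer1a were at 0), and the T and NK cell markers summed to at most 0.826 CPM in any library. Neutrophil markers, of cells known for Il1r2 and Il1b, summed to 2.20 to 4.71 CPM in GSK-J4 and 2.29 to 5.07 CPM in LPS + GSK-J4, with S100a9 and Camp at 0.

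**Figure D5:**
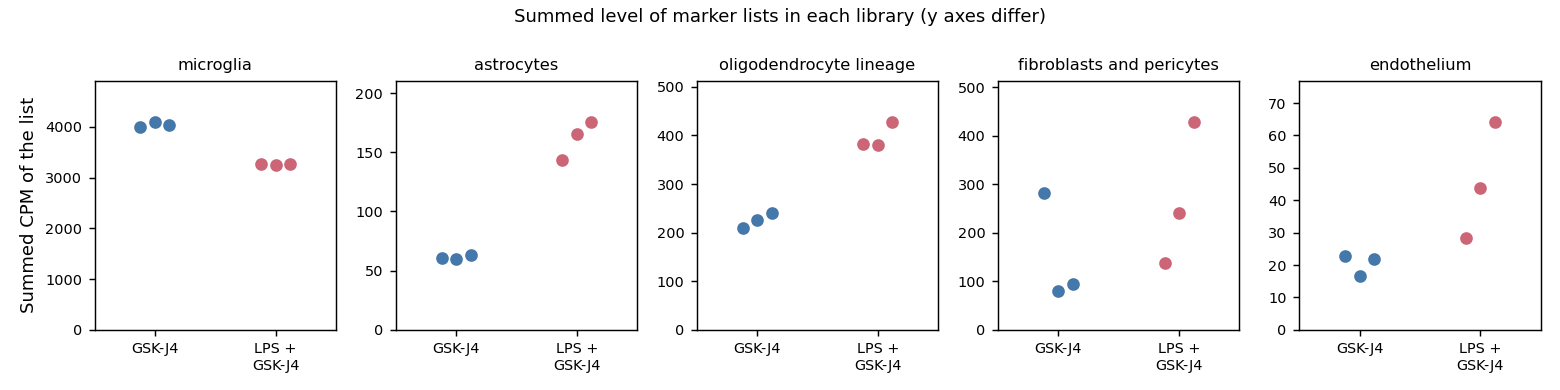
Summed CPM of 5 marker lists in each library, on linear axes from 0 that differ between panels; points are libraries. Astrocyte sums lie at 60.2 to 63.4 in GSK-J4 against 144 to 175 in LPS + GSK-J4, and microglial sums at 3996 to 4084 and 3246 to 3268.

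Among the genes that process and release IL-1 beta and IL-18, 13 of the 14 listed were tested, 2 were called higher and 0 lower (beside 2.95% and 0.809% of all genes tested), and their median log2 fold change was -0.06. Nlrp3, the inflammasome sensor, was at 34.2, 26.9 and 28.6 CPM in GSK-J4 and 381, 353 and 391 CPM in LPS + GSK-J4, and rose by a log2 fold change of 3.64 (edgeR adjusted p = 1.23e-11). Casp4, the caspase that senses intracellular LPS, was at 13.0, 11.0 and 4.03 CPM in GSK-J4 and 42.9, 36.6 and 31.8 CPM in LPS + GSK-J4, and rose by 1.92 (edgeR adjusted p = 7.81e-05). The other 11 genes tested were not called. Casp1, the protease itself, had a log2 fold change of -0.04 (edgeR adjusted p = 0.941), and the ATP-gated channel P2rx7 had one of -1.46 (edgeR adjusted p = 5.61e-07), short of the fold threshold. Casp1 and P2rx7 are named after their values were seen.

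Of the 20 genes listed for signalling close to the receptors, 19 were tested, 4 were called higher and 0 lower (beside 2.95% and 0.809% of all genes tested), and their median log2 fold change was -0.10. At any fold change, 5 were higher and 2 lower at an edgeR adjusted p of at most 0.01, beside 853 and 553 of the 10133 genes tested. Of these, Myd88 (0.80), Irak2 (-0.62) and Tab1 (-0.83) were short of the fold threshold and are named after their values were seen. Nfkbiz, which encodes an atypical nuclear protein of the I kappa B family, was at 44.4, 37.5 and 30.1 CPM in GSK-J4 and at 1175 to 1289 CPM in LPS + GSK-J4 (log2 fold change 5.02, edgeR adjusted p = 7.38e-13). Nfkbia, which encodes the inhibitor I kappa B alpha, had a log2 fold change of 3.13 (edgeR adjusted p = 1.09e-10). The ubiquitin ligase Peli1, which acts on IRAK proteins, had 2.00 (edgeR adjusted p = 2.58e-08), and the NF-kB subunit Nfkb1 had 1.54 (edgeR adjusted p = 1.20e-06). The Nfkb1 call lay close to the fold threshold and was lost without GSK-J4 replicate 2 (1.48), without LPS + GSK-J4 replicate 3 (1.39), with DESeq2 (1.49) and with no filter on low counts (1.49), which left 3 genes of the list called. These factors are shared with TLR4, and the data do not separate a response to IL-1 from one to LPS. Of the 15 names listed for other IL-1 family genes, 11 were features of the count tables and 0 passed the filter on low counts.

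The tested genes whose level followed each called member most closely over the 6 libraries are given by Pearson's r of log2 CPM, as a description. For Il1a these were Cxcl1, Cxcl2 and Gbp3 (each 0.999), and for Il1b they were Cxcl1 (0.999), Il1a (0.998) and Gbp3 (0.998). For Il1rn they were AI607873, Tubb3 and Btg2 (0.999 to 1.00), and for Il1rl1 they were Efr3b, Cdk14 and Kitl (0.994 to 0.995). The points fall into the 2 treatment groups, and between 223 and 463 of 10132 genes reached an r over 0.95 with a called member, so a high r is common here.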

How the data were processed

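The authors removed adapters with Trimmomatic 0.33, aligned paired reads to mm10 with STAR 2.5.1, and deposited each library's raw gene counts in unstranded, same-strand and reverse-strand columns. The counting annotation is not given in the sources used here. Reverse-strand counts were used, as the directional library kit requires. Groups and replicate numbers came from the labels. In R 4.3.3, edgeR 4.0.16 fitted all 6 libraries without covariates (TMM scaling, filterByExpr at 10 counts, total 15, robust quasi-likelihood test, Benjamini-Hochberg adjustment over 10133 genes), with DESeq2 1.42.0 (limma 3.58.1 loaded by edgeR) as an alternative. Calls used the study's thresholds, 0.01 and 1.5. The 3 ratios tested by permutation had 0.5 counts added, and the Il1a to Il1b ratio had none added. Lengths and positions came from GENCODE vM21, and promoters from RefSeq. The fit was tested on simulated data. All 10 members, the genes called in each pathway list and the 3 genes most like each called member were named, and any others were chosen after their values were seen. Members, lists and motifs were chosen with earlier results of these data known. Figures were drawn with matplotlib 3.10.9 in Python 3.11.15.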

Additional observations from a re-analysis of the deposited data

Results flagged for a closer look

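The same-strand column was not used in the comparisons. In it, raw counts of 2 members were higher in every LPS + GSK-J4 library than in every GSK-J4 library. The share of all features that separate in this way was not computed, so the 2 members are not set apart from other genes. For Il1a the same-strand total over the 3 libraries was 33 in LPS + GSK-J4 and 3 in GSK-J4, which is 0.818% and 0.518% of the counts of both strands, while between 0.966% and 1.38% of all stranded counts of a library lay on this strand. For Il1rl1 the total was 6 in LPS + GSK-J4, against 0 in GSK-J4. Totals were also higher in LPS + GSK-J4 for Il1rn (10 against 4), Il18bp (5 against 3), Il1b (3 against 2) and Il1r1 (2 against 1), with libraries of the groups that overlapped or tied. For Il18bp this was 33.3% of the counts of both strands in LPS + GSK-J4 and 9.68% in GSK-J4. By library, 4 of the Il18bp fragments of LPS + GSK-J4 came from replicate 1, 0 from replicate 2 and 1 from replicate 3. The source of the same-strand fragments was not tested for any member.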

How the results depend on the processing

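Il1a, Il1b and Il1rn were called higher under every alternative run, and Il1rl1 under all but the one without LPS + GSK-J4 replicate 2. Leaving out 1 library at a time gave log2 fold changes of 1.45 to 1.86 for Il1rl1, 1.27 to 2.42 for Il1r1 and -0.62 to 0.26 for Il18. In these fits 3 to 5 members were called higher, beside 271 to 374 of all genes. Il1r1 passed the thresholds with no filter (1.60), with the replicate block (1.70), without GSK-J4 replicate 1, and at adjusted p 0.05 with log2 fold change 1 (1.65). These looser thresholds called 844 genes higher and 285 lower, and 176 were called higher with at least 10 counts in every sample. Of the inflammasome list, 1 gene, P2rx7, was called lower with DESeq2, with no filter and at the looser thresholds, and 0 to 1 with 1 library left out. The receptor signalling list fell to 3 genes called higher, without Nfkb1, under DESeq2, with no filter, and without GSK-J4 replicate 2, LPS + GSK-J4 replicate 3 or replicate 3 of both groups. The Il18bp to Il18 difference turned to 0.00701 with unstranded counts and ranged from -1.12 to 0.226 with libraries left out, and that of Il1r2 to Il1r1 ranged from -1.08 to 1.07 (0.552 without GSK-J4 replicate 3 and 0.134 without LPS + GSK-J4 replicate 3). Without replicate 3 of both groups, chosen after seeing the data, Il18 gave 0.19 and Il1r2 to Il1r1 gave 1.07. Where a value moved, the cause was not tested. The labels do not say whether same-numbered samples share a culture, and the numbers were not treated as pairs. Deviations of same-numbered samples correlated at -0.0102, 0.117 and 0.295, the last being the highest of any pair across the groups. Not every sample correlated best with its own number, so these values do not settle the pairing. With the block 306 genes were called higher and 90 lower. The SE was then 0.108 for Il1a and 0.144 for Il1b, beside 0.161 and 0.198 without the block. Il18 and Il1r1 had no value without ribosomal features, nor did Il1rap with unstranded counts, nor these 3 with at least 10 counts in every sample. Depth limits Il18, Il18bp, Il33, Il1r1, Il1r2 and Il1rap, each with at most 23 counts in a library.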
